A study of Mus musculus with 20 samples.

Results

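Interferon response and major histocompatibility complex (MHC) class I genes were described in sorted mouse beta cells. The group holds 41 genes chosen by symbol, from the chains of class I molecules to the effectors that interferon switches on. All 41 were present among the 26305 entries with a usable name, and 40 reached a mean of 0.5 FPKM (fragments per kilobase of gene, scaled to sequencing depth) over the 20 libraries, as did 12455 genes in all. The 41st gene, Ifit2, had a mean of 0.41 FPKM (17 to 120 reads per library) and was not tested. The nearest genes above the limit were Ifi44 at 1.02 FPKM and Nlrc5 at 1.098 FPKM. RNA came from beta cells of male mice aged 6 to 8 months on a chow diet, and 4 genotypes gave 5 libraries each. Wild type mice are called WT, IKO mice carry floxed Foxo1, HKO mice floxed Hnf4a and DKO mice both, deleted by Cre under the rat insulin promoter (RIP-Cre), and Foxo1 and Hnf4a are transcription factors of metabolic genes. Cells of all genotypes were sorted on a ROSA26-tomato reporter that the same Cre switches on, so a cell counts as a beta cell only through past activity of that promoter, and the labels do not say whether WT mice carried floxed alleles or whether libraries came from separate animals. The comparisons ask how loss of either factor, or of both, goes with the level of these genes.

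Type I interferon binds the receptor chains Ifnar1 and Ifnar2, and the kinases Jak1 and Tyk2 then activate a complex holding Stat2 and Irf9 that binds interferon-stimulated response elements in target promoters. Interferon gamma raises Irf1, which together with Nlrc5 raises the genes that build class I molecules, load them with peptide and bring them to the cell surface. In human type 1 diabetes, islets with raised class I and interferon-induced proteins are a known feature, which makes the resting level of this pathway in beta cells of interest.

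Promoters were searched for the core letters of the response element, GAAANNGAAA on either strand (TTTCNNTTTC on the other). RefSeq windows of 300 bases (GRCm38.p6, 250 before to 50 after the start) were at hand for 33 of the 40 members, and 15 of the 33 held a match (45.5%), against 3.99% of 27025 windows of all genes and 3.46% of the 9427 windows of genes tested here. The matches covered all 3 guanylate-binding protein genes, both RNA sensors with a window and 4 of 5 IFIT, OAS and viperin genes, but 0 of 5 genes of peptide processing. Tap2, Nlrc5, Ifi27, Dhx58, Usp18, Rtp4 and Parp14 were not searched. A match is a run of letters and not a measured binding site. The following windows are shown because they carry these letters in members of 5 roles: the class I light chain B2m (chr2:122147437-122147736, plus strand), the regulator Stat2 (chr10:128270248-128270547, plus strand), the membrane tether Bst2 (chr8:71537423-71537722, minus strand), the RNA sensor Ddx58 (chr4:40239776-40240075, minus strand) and the effector Ifit1 (chr19:34640639-34640938, plus strand). Each is written 5′ to 3′ along the gene, with the matches in capitals. In Bst2, 2 matches overlap, and in Ddx58 the match lies after the start.
B2m: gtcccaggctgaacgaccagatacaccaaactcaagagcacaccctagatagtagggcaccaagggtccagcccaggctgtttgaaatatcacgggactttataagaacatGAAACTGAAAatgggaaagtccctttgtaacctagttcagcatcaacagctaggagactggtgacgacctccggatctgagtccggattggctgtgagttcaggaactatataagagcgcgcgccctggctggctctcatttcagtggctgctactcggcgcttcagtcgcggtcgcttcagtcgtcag
Stat2: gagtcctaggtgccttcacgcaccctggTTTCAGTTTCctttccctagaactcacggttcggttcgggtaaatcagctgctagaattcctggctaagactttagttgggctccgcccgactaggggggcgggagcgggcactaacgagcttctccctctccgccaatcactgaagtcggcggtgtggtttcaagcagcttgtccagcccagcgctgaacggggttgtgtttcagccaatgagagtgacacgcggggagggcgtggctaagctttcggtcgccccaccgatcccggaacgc
Bst2: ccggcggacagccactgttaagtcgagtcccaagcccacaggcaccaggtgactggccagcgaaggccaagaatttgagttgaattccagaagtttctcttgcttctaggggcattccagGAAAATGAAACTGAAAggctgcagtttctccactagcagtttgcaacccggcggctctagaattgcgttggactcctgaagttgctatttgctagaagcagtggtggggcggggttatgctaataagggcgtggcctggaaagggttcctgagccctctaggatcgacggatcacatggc
Ddx58: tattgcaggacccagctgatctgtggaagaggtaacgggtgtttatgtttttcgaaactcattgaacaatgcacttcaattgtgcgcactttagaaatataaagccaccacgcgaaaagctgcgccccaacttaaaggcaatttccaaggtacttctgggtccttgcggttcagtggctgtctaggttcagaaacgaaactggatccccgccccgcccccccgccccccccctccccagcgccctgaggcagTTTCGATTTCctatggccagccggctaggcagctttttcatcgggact
Ifit1: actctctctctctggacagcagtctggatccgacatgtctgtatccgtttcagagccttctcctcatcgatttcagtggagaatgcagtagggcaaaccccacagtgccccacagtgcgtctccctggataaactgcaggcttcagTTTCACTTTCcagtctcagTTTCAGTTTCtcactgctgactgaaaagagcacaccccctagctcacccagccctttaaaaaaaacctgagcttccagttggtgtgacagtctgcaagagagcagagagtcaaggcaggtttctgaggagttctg

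Library totals ranged from 22.6 to 34.7 M (mega) reads, with a median of 27.8 M. Within every genotype, replicates 1 and 2 lay close to each other, as did replicates 4 and 5: the chi-square per degree of freedom of their reads was 1.43 to 3.97 in these 8 pairs and 10.6 to 44.7 in the other 32 pairs, where sampling noise alone gives 1. These pairs, and replicate 3 by itself, are referred to as library sets, although no label names them as batches. Foxo1 stood at 16.7% of its WT mean in IKO and 21.1% in DKO, and Hnf4a at 68.8% in HKO and 71.7% in DKO. These are FPKM of whole genes, so they do not measure how much of a floxed segment was deleted. The 10 beta cell markers summed to 269242 to 388425 FPKM per library, most of it Ins1 and Ins2.

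The members ranged widely in level. H2-D1, a class I heavy chain, had the highest mean at 591 FPKM over 20 libraries, followed by the heavy chain H2-K1 at 508, the light chain B2m at 235, the interferon-induced membrane protein Ifi27 at 181 and the loading factor Tapbp at 149. Isg15 and Rsad2, which mark an acute interferon response, had means of 7.62 and 5.25 FPKM. Together the 40 members took 0.2998 to 0.577% of reads per library, lowest in WT 1 and highest in WT 5, where libraries are named by genotype and replicate. The members varied widely between libraries: the median SD of log2(FPKM + 0.5) over 20 libraries was 0.36, against 0.16 for all genes tested. By that SD, 24 of 40 members lay in the top 10% of all genes, and every member but Irf1 exceeded the median of all genes. The highest library was WT 5 for 24 members, WT 4 for 9, DKO 3 for 6 and WT 3 for 1. The lowest was WT 1 for 9 members, IKO 4 for 8 and HKO 3 for 7.

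**Figure D1:**
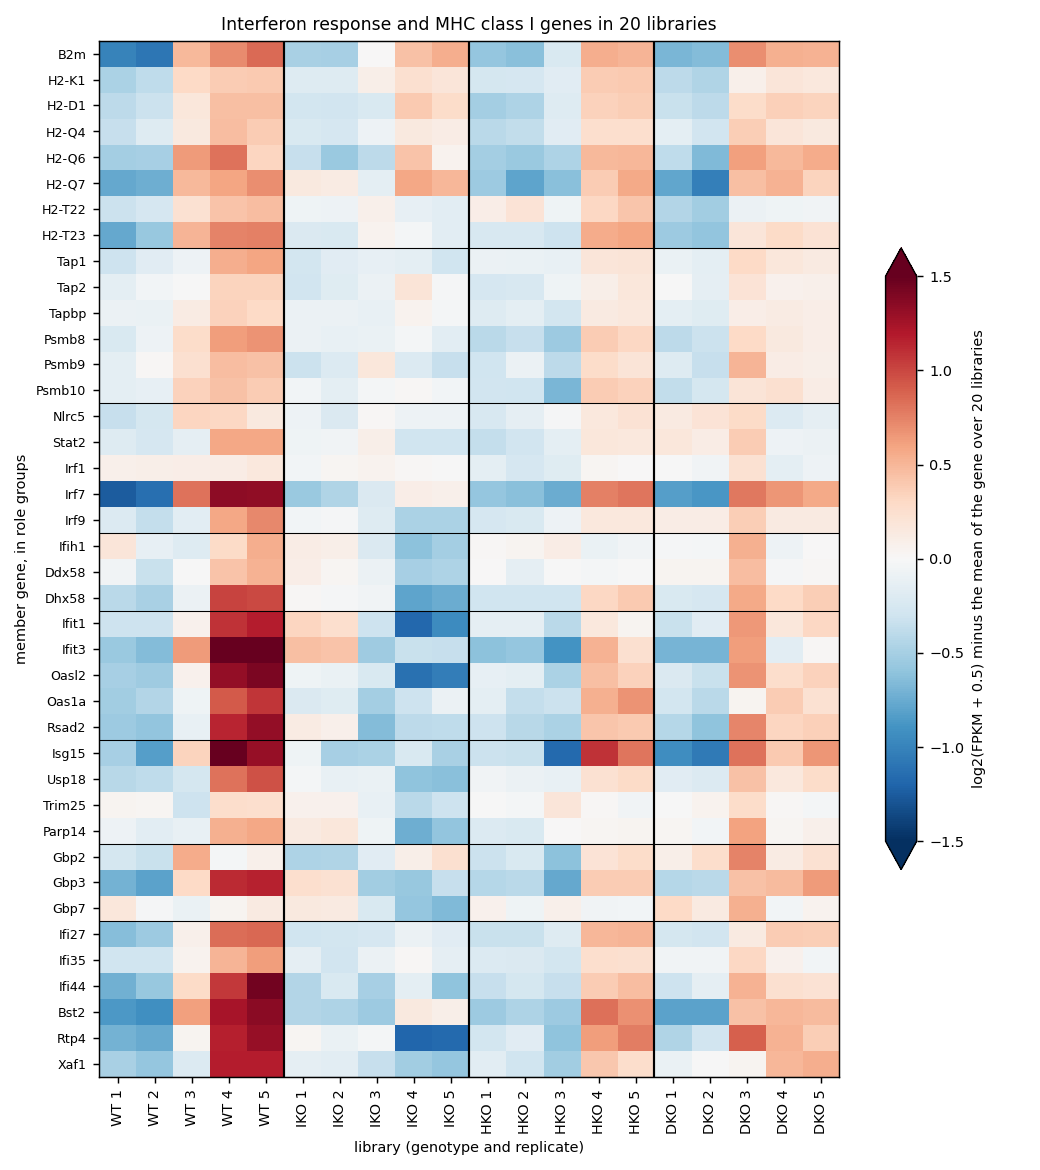
Each cell gives log2(FPKM + 0.5) of a member in 1 library minus its mean over 20 libraries (red higher, blue lower, colours saturating at 1.5), with members in 8 role groups and libraries ordered by genotype and replicate. WT 4 and WT 5 are red for nearly all members and WT 1 and WT 2 mostly blue, while IKO 4 and IKO 5 are red for most class I chains and blue for the RNA sensors and Oasl2.

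The plot of all members by library shows the contrast inside WT. The role groups are taken in turn, from the class I chains to the antiviral effectors, and the tests between genotypes follow them.

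B2m, H2-K1 and H2-D1 were the most abundant members, and most class I chains were higher in replicates 4 and 5 than in replicates 1 and 2. B2m, the light chain shared by all class I molecules, measured 107, 101, 303, 353 and 387 FPKM in WT replicates 1 to 5 and 154, 152, 216, 293 and 314 FPKM in IKO. In HKO the same gene read 143, 139, 183, 313 and 307 FPKM and in DKO 134, 137, 349, 313 and 308 FPKM. Replicates 4 and 5 lay above replicates 1 and 2 in all 4 genotypes, and the genotypes overlapped throughout, with means of 250 ± 137 (WT), 226 ± 75.8 (IKO), 217 ± 86.5 (HKO) and 248 ± 104 FPKM (DKO, SD, n = 5 each). The heavy chain H2-K1 gave 358, 381, 611, 648 and 652 FPKM in WT 1 to 5, 437, 436, 529, 587 and 565 in IKO, 414, 417, 443, 647 and 651 in HKO and 379, 362, 525, 563 and 556 in DKO. Its libraries followed the same order of sets, and its log2 difference from WT was −0.01 in IKO, −0.02 in HKO and −0.13 in DKO (SE 0.19, limma unadjusted p = 0.515 or above). H2-D1 ranged from 404 FPKM in HKO 1 to 783 FPKM in WT 4. The nonclassical chain H2-T22 gave 13.6, 14.4, 20.2, 23.3 and 23.8 FPKM in WT 1 to 5, 16.4, 16.2, 18.2, 15.8 and 15.3 in IKO, 18.5, 19.96, 16.4, 21.5 and 22.999 in HKO and 12.5, 11.8, 16.1, 16.4 and 16.5 in DKO. All 5 DKO libraries lay at or below 16.5 FPKM and 4 of 5 HKO libraries at or above 18.5 FPKM. H2-T22 was lower in DKO than in HKO by a log2 difference of −0.43 (SE 0.14, limma unadjusted p = 0.00681, adjusted p = 0.989) and lower than in WT by −0.34 (adjusted p = 0.469). The class I heavy chains are related in sequence, so reads of the most alike could have been split between them, and how far was not measured. Of the heavy chains, 7 lie together with Tap1, Tap2, Tapbp, Psmb8 and Psmb9 in 2.13 Mb of chromosome 17 (33915899 to 36042747, GRCm38), while B2m is on chromosome 2.

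Genes that make and load the peptides had highest libraries 1.54 to 2.36-fold above their lowest. Tapbp, which holds empty class I molecules at the peptide transporter, ranged from 123 FPKM in HKO 3 to 189 FPKM in WT 4. Psmb8, a catalytic subunit of the immunoproteasome, gave 36.1, 39.96, 51.2, 65.3 and 67.8 FPKM in WT 1 to 5, 39.7, 39.1, 39.5, 41.5 and 37.9 in IKO, 31.8, 33.1, 28.7, 55.1 and 52.7 in HKO and 32.0, 33.8, 51.9, 46.8 and 45.2 in DKO. WT 4 and WT 5 were the highest libraries, and the 5 IKO libraries lay within 37.9 to 41.5 FPKM. Means were 52.1 ± 14.4 in WT, 39.5 ± 1.29 for IKO, 40.3 ± 12.6 for HKO and 41.9 ± 8.64 FPKM for DKO (SD, n = 5), and the log2 difference of HKO from WT was −0.38 (SE 0.19, limma adjusted p = 0.789). Psmb9, another subunit of that proteasome, measured 21.5 ± 3.95 FPKM in WT and 16.3 ± 2.56 FPKM in IKO, a log2 difference of −0.39 (SE 0.16, limma unadjusted p = 0.0271, adjusted p = 0.999968). Tap1, a chain of the transporter that carries peptides into the endoplasmic reticulum, measured 12.3 ± 3.84 FPKM in WT and 9.43 ± 0.548 in IKO (log2 −0.32, SE 0.15, unadjusted p = 0.0421, adjusted p = 0.999968). In all 3 genes WT and IKO libraries overlapped.

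Among the transcription regulators, Irf7 varied most and Irf1 least. Irf7, the regulator that amplifies type I interferon output, measured 15.9, 17.3, 68.2, 98.4 and 97.0 FPKM in WT replicates 1 to 5 and 26.0, 28.0, 33.1, 41.4 and 40.5 FPKM in IKO. In HKO the same gene read 25.5, 24.6, 22.8, 65.2 and 67.2 FPKM and in DKO 21.5, 20.7, 66.9, 60.9 and 57.2 FPKM. WT held both extremes, with a mean of 16.6 FPKM in replicates 1 and 2 and 97.7 FPKM in replicates 4 and 5, a log2 difference of 2.52. The same difference was 0.59 for IKO, 1.38 for HKO and 1.46 for DKO. Irf9, the DNA-binding subunit of the interferon-activated complex, gave 18.04, 16.1, 18.6, 31.4 and 34.6 FPKM in WT 1 to 5, 20.3, 20.6, 18.1, 14.9 and 14.8 in IKO, 17.3, 17.7, 19.7, 23.4 and 23.3 in HKO and 22.6, 22.5, 27.0, 22.997 and 22.9 in DKO. All DKO libraries lay above all IKO libraries. The log2 difference between them was 0.41 (SE 0.17, limma unadjusted p = 0.0267, adjusted p = 0.387). Stat2, its partner, gave 18.5, 17.8, 19.4, 31.9 and 32.0 FPKM in WT 1 to 5, 20.4, 20.5, 22.7, 17.2 and 17.2 in IKO, 16.6, 17.4, 19.2, 24.1 and 23.8 in HKO and 24.1, 22.95, 27.8, 20.2 and 19.9 in DKO. WT 4 and WT 5 stood apart at about 32 FPKM, and the genotypes overlapped. Irf1, which acts downstream of interferon gamma, gave 22.3, 22.4, 22.6, 22.9 and 23.6 FPKM in WT 1 to 5, 20.5, 21.5, 21.9, 21.4 and 21.0 in IKO, 18.9, 17.5, 18.5, 21.5 and 21.2 in HKO and 20.9, 20.3, 24.9, 19.0 and 20.001 in DKO. The IKO and HKO libraries all lay below all WT libraries, with means of 22.8 ± 0.529 (WT), 21.3 ± 0.533 (IKO), 19.5 ± 1.72 (HKO) and 21.0 ± 2.27 FPKM (DKO, SD, n = 5). The log2 difference of HKO from WT was −0.22 (SE 0.06, limma unadjusted p = 0.00291, adjusted p = 0.171). It did not pass under any of the 36 alternatives, by limma or voom, where the lowest adjusted p was 0.0566. Nlrc5, the coactivator of class I genes, was low, at 0.743 to 1.48 FPKM.

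The cytosolic RNA sensors went opposite ways in WT and IKO between the library sets. Dhx58, which tunes the other sensors, gave 5.42, 5.095, 6.89, 15.3 and 15.2 FPKM in WT 1 to 5, 7.45, 7.30, 7.08, 4.05 and 4.21 in IKO, 5.89, 5.87, 5.88, 9.27 and 9.81 in HKO and 6.22, 6.11, 11.2, 9.19 and 9.68 in DKO. From replicates 1 and 2 to replicates 4 and 5 its mean went from 5.26 to 15.2 FPKM in WT and from 7.37 to 4.13 FPKM in IKO. Ifih1, the sensor of long double-stranded RNA, went from 3.73 to 5.002 FPKM in WT and from 3.93 to 2.29 FPKM in IKO. Ifih1 was lower in IKO than in WT over all libraries by −0.36 (log2, SE 0.16, limma unadjusted p = 0.0301, adjusted p = 0.999968). Ddx58, the sensor of short RNA with a 5′ triphosphate, measured 12.7 ± 3.23 FPKM in WT, 10.2 ± 2.01 for IKO, 11.2 ± 0.449 for HKO and 12.5 ± 1.97 for DKO (SD, n = 5). Its IKO 4 and IKO 5 libraries were the lowest of all 20, at 7.93 and 8.14 FPKM.

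The IFIT, OAS and viperin effectors bind or degrade viral RNA or block virus assembly. All 5 tested were at least 2-fold higher in WT replicates 4 and 5 than in WT replicates 1 and 2 (0.803% of all genes were). Oasl2, a relative of the oligoadenylate synthetases, measured 12.3, 12.0, 18.4, 44.7 and 47.5 FPKM in WT replicates 1 to 5 and 16.8, 16.4, 14.9, 7.82 and 8.31 FPKM in IKO. In HKO the same gene read 16.03, 15.8, 12.5, 24.3 and 22.4 FPKM and in DKO 15.1, 13.8, 28.4, 21.2 and 22.5 FPKM. WT 4 and WT 5 were the highest of the 20 libraries and IKO 4 and IKO 5 the lowest. Within replicates 4 and 5, IKO lay below WT by −2.44 on the log2 scale, whereas within replicates 1 and 2 it lay above WT by 0.44. Over all libraries the difference was −0.86 (SE 0.35, limma unadjusted p = 0.0241, adjusted p = 0.999968), and the libraries overlapped. Ifit3, an RNA-binding repeat protein, gave 2.67, 2.46, 6.70, 12.8 and 13.9 FPKM in WT 1 to 5, 5.85, 5.75, 2.71, 3.19 and 3.14 in IKO, 2.54, 2.60, 2.01, 6.15 and 4.99 in HKO and 2.36, 2.37, 6.67, 3.66 and 4.20 in DKO. It was high in WT 4 and WT 5, and WT 1 and WT 2 lay among the low libraries of the other genotypes. Its difference from WT was −0.78 in HKO (SE 0.42, limma adjusted p = 0.811) and −0.70 in DKO (adjusted p = 0.765). Ifit1, Oas1a and Rsad2, named after their values were seen, had log2 differences of 1.45, 1.47 and 1.801 between these sets in WT.

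Of the 4 ubiquitin-like and ADP-ribosylation genes, Isg15 and Usp18 were highest in WT 4 or WT 5, and Parp14 and Trim25 in DKO 3. Isg15, a ubiquitin-like protein that is attached to other proteins, gave 4.43, 3.41, 8.27, 19.3 and 16.8 FPKM in WT 1 to 5, 6.14, 4.41, 4.51, 5.43 and 4.47 in IKO, 5.07, 5.01, 2.60, 14.2 and 11.7 in HKO and 3.14, 2.84, 11.7, 8.59 and 10.5 in DKO. Its highest library, WT 4, was 7.43-fold above its lowest, HKO 3, on 48 to 431 reads per library. Usp18, which removes Isg15 and dampens receptor signalling, measured 31.6 ± 15.7 FPKM in WT, 21.5 ± 4.31 for IKO, 27.2 ± 3.73 for HKO and 28.4 ± 5.53 for DKO (SD, n = 5). Parp14, an ADP-ribosyltransferase, was lowest in IKO 4 at 4.27 FPKM and highest in DKO 3 at 11.6 FPKM. Trim25, which adds ubiquitin to Ddx58, ranged from 14.6 to 23.6 FPKM.

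The guanylate-binding proteins, interferon-induced GTPases that attack the membranes around microbes, did not share 1 pattern. Gbp7 gave 3.08, 2.63, 2.47, 2.79 and 2.98 FPKM in WT 1 to 5, 3.03, 2.9997, 2.21, 1.62 and 1.51 in IKO, 2.81, 2.55, 2.86, 2.57 and 2.59 in HKO and 3.42, 3.003, 4.12, 2.59 and 2.79 in DKO. It differed little between the sets in WT (0.02 on the log2 scale) and was lower in IKO 4 and IKO 5 than in all other libraries. DKO lay above IKO by 0.43 (SE 0.14, limma unadjusted p = 0.00614, adjusted p = 0.198), with overlapping libraries. Gbp2 gave 3.27, 3.09, 6.17, 3.93 and 4.29 FPKM in WT 1 to 5, 2.78, 2.81, 3.53, 4.30 and 4.84 in IKO, 3.14, 3.36, 2.45, 4.71 and 4.97 in HKO and 4.32, 4.96, 7.11, 4.45 and 4.81 in DKO. DKO 3 was the highest library, and DKO lay above IKO by 0.45 (SE 0.19, limma adjusted p = 0.410) and above HKO by 0.43 (adjusted p = 0.990). Gbp3 resembled the effectors more, at 2.73 FPKM in WT replicates 1 and 2 and 11.5 FPKM in WT replicates 4 and 5, against 5.93 and 3.47 FPKM in IKO.

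Of the other interferon-induced genes, Ifi27 was the most abundant. Bst2 and Rtp4 had the largest SD of log2(FPKM + 0.5) over 20 libraries (0.72 each), while the ratio of highest to lowest library was largest for Ifi44, at 9.41 on 30 to 258 reads. Bst2, which tethers budding viruses to the cell surface, gave 14.7, 14.2, 41.8, 64.8 and 70.6 FPKM in WT 1 to 5, 19.9, 19.7, 18.5, 30.2 and 29.0 in IKO, 18.5, 19.5, 18.5, 48.5 and 44.1 in HKO and 15.4, 15.4, 37.2, 38.6 and 38.02 in DKO. Replicates 4 and 5 lay above replicates 1 and 2 in every genotype, 4.68-fold in WT and 1.496-fold in IKO. Ifi27 measured 207 ± 99.8 FPKM in WT, 149 ± 9.14 for IKO, 183 ± 56.7 for HKO and 185 ± 40.9 for DKO (SD, n = 5). Xaf1, an interferon-induced gene linked to cell death and named after its values were seen, was higher in all DKO libraries (10.8 to 17.01 FPKM) than in all IKO libraries (7.57 to 10.5 FPKM).

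**Figure D2:**
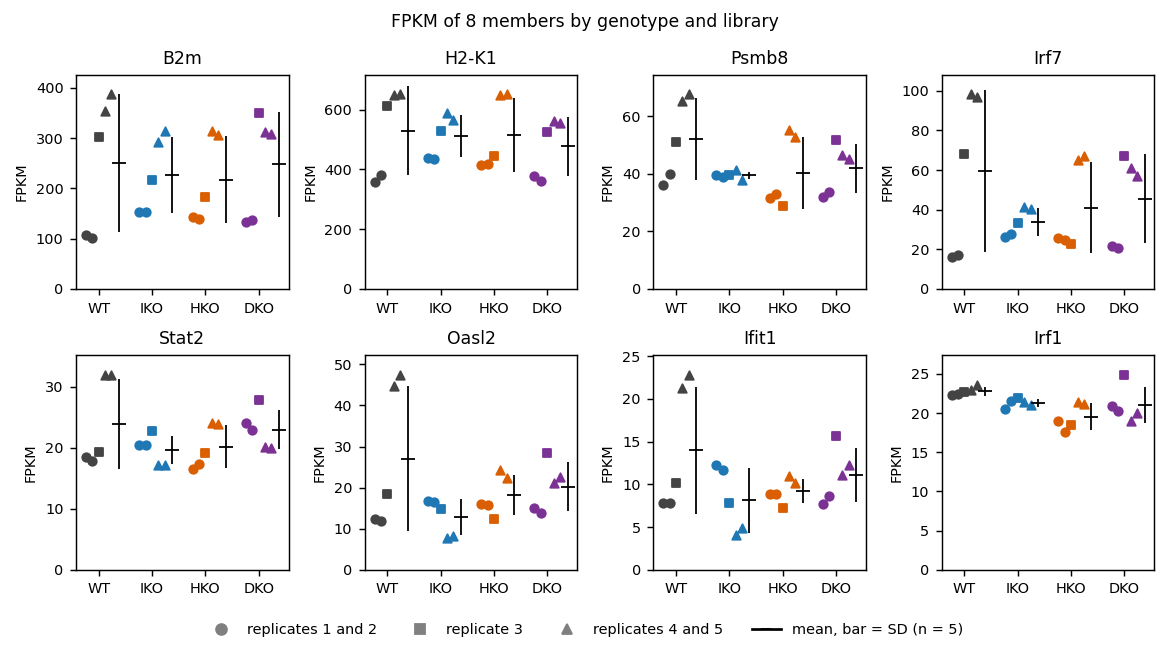
FPKM (y axis from 0) of 8 members in each library, by genotype, with circles for replicates 1 and 2, squares for replicate 3, triangles for replicates 4 and 5, and a black bar for the mean ± SD of 5 libraries. Triangles lie above circles in every genotype for B2m, H2-K1 and Irf7, in WT, HKO and DKO but not IKO for Oasl2 and Ifit1, and Irf1 spans the narrowest range.

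The plot of levels by library shows the same 8 genes without any fit. Between genotypes, no member passed an adjusted p of 0.05 in any of the 6 comparisons, by limma on log2(FPKM + 0.5) with Benjamini-Hochberg adjustment over all 12455 genes, and none passed with voom on reads recovered from the FPKM values. In IKO against WT, 0 of 40 members passed (0.0241% of all genes did), and 6 had an unadjusted p below 0.05, all lower (1.68% of all genes were lower at such a p). In HKO against WT, 0 passed (0.787% of all genes) and 1 was lower at such a p (4.23%). In DKO against WT, 0 passed (1.2% of all genes) and 1 was lower at such a p (3.93%). In DKO against HKO, 0 passed (0.00803% of all genes) and 2 had such a p, 1 in each direction (3.69% of all genes in either). In DKO against IKO, 0 passed (1.11% of all genes) and 3 were higher at such a p (4.33%), with none lower. The interaction, taken as the step from HKO to DKO less the step from WT to IKO, gave 0 passing (0.00803% of all genes) and 7 above 0 at such a p (2.2%), with none below.

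By size, 38 of 40 members were lower in IKO than in WT, with a median log2 difference of −0.33 (all genes 0.01). In HKO against WT, 39 of 40 were lower, with a median of −0.18 (all genes 0.00). In DKO against WT, 33 of 40 were lower, with a median of −0.06 (all genes 0.02). These 3 comparisons share the 5 WT libraries, 2 of which, WT 4 and WT 5, hold the highest value of 33 members. Without WT 5 the median of DKO against WT was 0.05 and that of HKO against WT −0.04, and without replicates 4 and 5 of every genotype, an alternative chosen after seeing the data, the median of IKO against WT was 0.09. In that fit of 12 libraries, Stat2 and Irf9 passed in DKO against WT, higher by 0.41 and 0.44 (limma adjusted p = 0.0426 and 0.0444), where 0.907% of all genes passed. That fit counted the close pair of replicates 1 and 2 as separate libraries, which can make p too small. In replicates 4 and 5, which it left out, the differences of Stat2 and Irf9 were −0.66 and −0.51. DKO was above IKO for 35 of 40 members (median 0.26) and above HKO for 34 of 40 (median 0.10), and the interaction was above 0 for 37 of 40 (median 0.44), but these signs were not the same in every library set. In replicates 1 and 2, 28 of 40 members were below 0 both for DKO against IKO (median −0.12) and for the interaction (median −0.19), and 20 of 40 for DKO against HKO. In replicate 3 the medians of DKO against IKO, DKO against HKO and the interaction were 0.55, 0.57 and 0.82. In replicates 4 and 5 they were 0.37, −0.08 and 0.76, with 30 of 40 members below 0 for DKO against HKO. The medians of all genes lay between −0.15 and 0.08 in these sets and comparisons. Without replicates 4 and 5 the fitted median was 0.107 for DKO against IKO and 0.138 for the interaction, and without replicate 3 of every genotype it was −0.033 for DKO against HKO. The members with the smallest p for the interaction were Gbp7 at 0.48 (SE 0.20), Irf9 at 0.58 (SE 0.24) and Parp14 at 0.58 (SE 0.26), with limma unadjusted p of 0.0255, 0.0284 and 0.0396 and an adjusted p = 0.989 for all of them. The median SE of a member was 0.21 for a pair of genotypes and 0.30 for the interaction. Few members had libraries that did not overlap. Irf1 alone was lower without overlap in IKO against WT (0.369% of all genes were) and in HKO against WT (1.45%), and Irf9 and Xaf1 were higher without overlap in DKO against IKO (1.52%).

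Inside library sets, the sign of the difference from WT was not the same. In replicates 1 and 2, 36 of 40 members were higher in IKO than in WT (median 0.26, all genes −0.03). In replicate 3, a single library each, the median was −0.26 (all genes 0.07). In replicates 4 and 5 it was −0.86 (all genes 0.03), with 39 of 40 lower and 16 at least 2-fold lower (0.626% of all genes were). All 5 IFIT, OAS and viperin genes were among these 16, with a median of −1.92, while none of the 8 class I chains was (median −0.29). In HKO the medians were 0.13, −0.37 and −0.36 in the 3 sets (all genes −0.05, 0.20 and −0.06), and 2 members were at least 2-fold lower in replicates 4 and 5 (0.442% of all genes). In DKO they were 0.10, 0.21 and −0.50 (all genes 0.01, 0.11 and −0.02), and 3 members were at least 2-fold lower in replicates 4 and 5 (0.755% of all genes).

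Counted by single libraries, both IKO libraries of replicates 4 and 5 lay below both WT libraries for 38 of 40 members (21.8% of all genes), both HKO libraries for 35 (41.5%) and both DKO libraries for 37 (33.6%). For 28 members the IKO libraries were also both above both WT libraries in replicates 1 and 2 (3.65% of all genes), for 19 the HKO libraries (4.75%) and for 19 the DKO libraries (9.67%). These 28 included B2m, H2-K1, H2-D1, Stat2, Irf7, Irf9, Dhx58, Oasl2, Ifit3, Usp18, Gbp3, Ifi27 and Bst2, but not Tap1, Psmb8, Irf1 or Isg15.

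**Figure D3:**
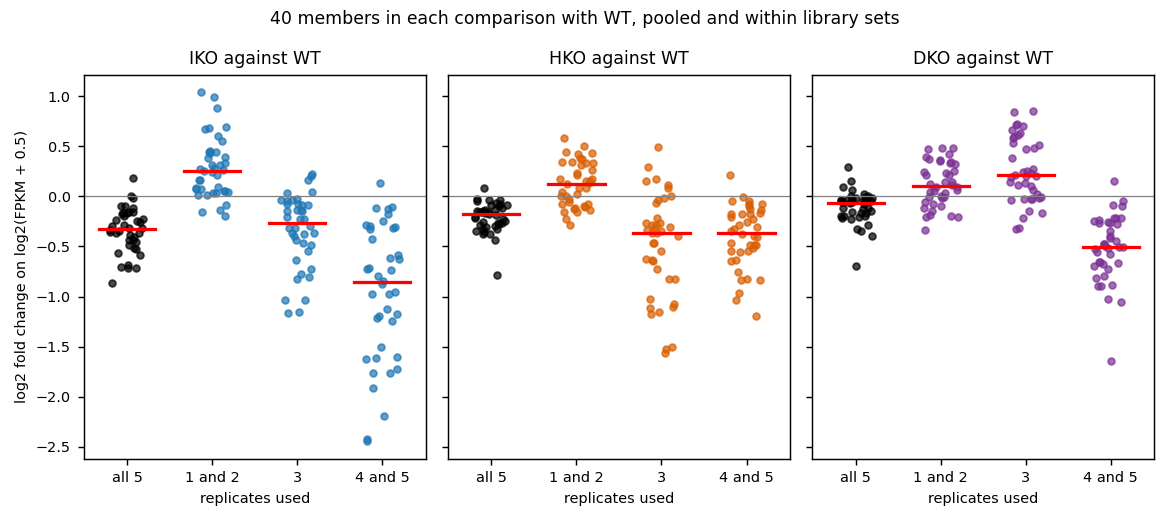
Log2 differences from WT on log2(FPKM + 0.5), 1 point per member (40), for IKO, HKO and DKO, fitted over all 5 replicates (black) and within each library set (coloured), with red lines at the medians. In IKO the median goes from 0.26 in replicates 1 and 2 to −0.86 in replicates 4 and 5, and the pooled median of −0.33 lies between them.

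The plot of differences from WT by library set shows the change of side in each genotype. Seen from the sets themselves, all 40 members were higher in WT replicates 4 and 5 than in WT replicates 1 and 2, with a median log2 difference of 0.90 (all genes −0.05), and 19 were at least 2-fold higher (0.803% of all genes). In HKO, 37 of 40 were higher, with a median of 0.60, and 6 were at least 2-fold higher (1.03% of all genes). In DKO, 32 of 40 were higher, with a median of 0.48, and 6 were at least 2-fold higher (0.297% of all genes). IKO stood apart in value, with 19 of 40 higher, a median of −0.01 and 0 at least 2-fold higher (1.14% of all genes), and 2 members were at least 2-fold lower (0.731% of all genes). Whether the set difference itself differs between genotypes was not tested, since each side rests on a pair of close libraries.

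The role groups had unlike values in IKO, a difference that was not tested. There, 7 of 8 class I chains were higher in replicates 4 and 5 (median 0.40), whereas 0 of 3 RNA sensors (median −0.67), 0 of 5 IFIT, OAS and viperin genes (median −0.78) and 0 of 4 ubiquitin-like and ADP-ribosylation genes (median −0.48) were. The other groups were mixed, with 5 of 6 genes of peptide processing and loading higher (median 0.04), 3 of 5 transcription regulators (0.01), 3 of 6 other interferon-induced genes (0.05) and 1 of 3 guanylate-binding proteins (−0.70). In WT every member was higher, with medians of 0.94 for the class I chains, 0.67 for the sensors, 1.801 for the IFIT, OAS and viperin genes and 0.98 for the ubiquitin-like and ADP-ribosylation genes. In HKO and DKO all 8 class I chains (medians 0.82 and 0.77) and all 5 IFIT, OAS and viperin genes (medians 0.76 and 0.63) were higher, while the sensors had medians of 0.05 and −0.01.

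**Figure D4:**
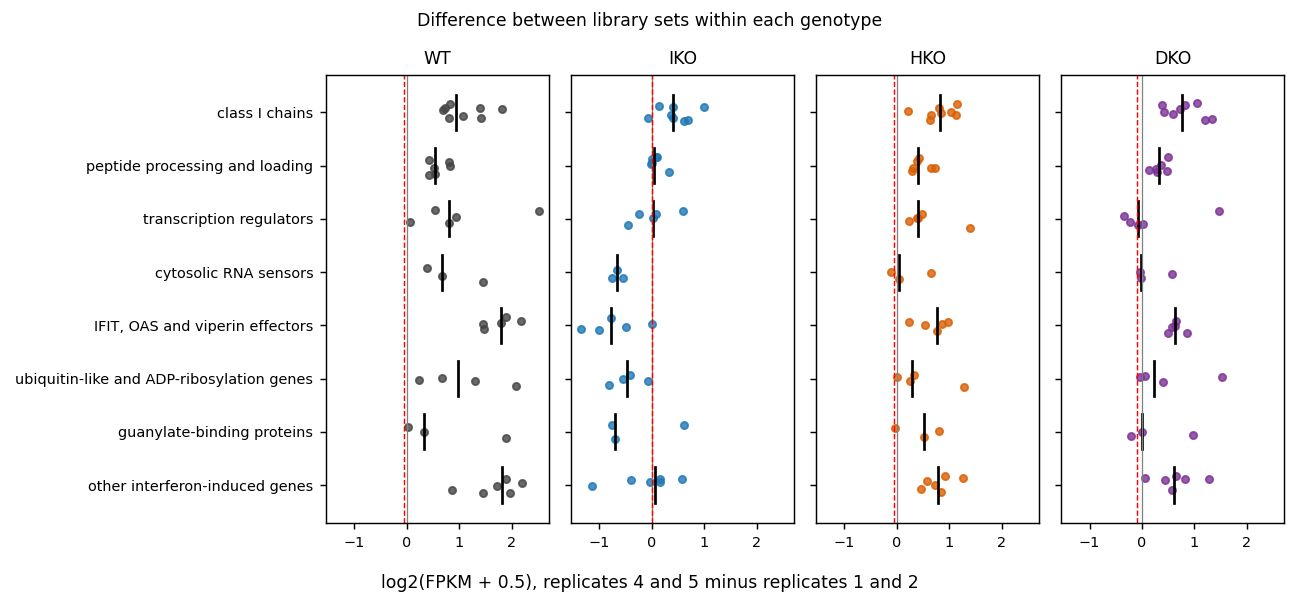
Log2 difference between replicates 4 and 5 and replicates 1 and 2 for each member (points), by role group and genotype, with a black bar at the median of the role group and a red dashed line at the median of all genes tested. All points lie right of 0 in WT, while in IKO the class I chains lie mostly right and the sensors and the IFIT, OAS and viperin genes left of 0.

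The plot by role group places IKO beside WT. Markers of other cell types moved with some of these libraries. The 10 endothelial markers summed to 13.9 and 15.5 FPKM in WT 4 and WT 5 and to 19.1 FPKM in DKO 3, against 4.996 to 8.48 FPKM in the other 17 libraries. By genotype these sums ranged from 5.72 to 15.5 FPKM in WT, 7.10 to 8.48 in IKO, 4.996 to 6.74 in HKO and 5.93 to 19.1 in DKO. WT 4, WT 5 and DKO 3 together held the highest value of 39 of the 40 members. The 20 macrophage and class II markers summed to 34.8 to 49.6 FPKM in WT, 36.2 to 42.4 in IKO, 27.3 to 48.8 in HKO and 45.5 to 66.6 in DKO, highest in DKO 3 and lowest in HKO 3. In bulk RNA, fewer cells of a type and less RNA per cell cannot be told apart.

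No marker of either list was at 0 reads throughout. Pecam1 and Plvap, which define endothelium, ranged from 0.186 to 2.06 and from 0.288 to 3.58 FPKM, Ptprc, the pan-leukocyte marker, from 0.0191 to 0.341 FPKM, and Cd74, the class II chaperone, from 3.33 to 15.4 FPKM. The 14 lymphocyte markers summed to 0.758 to 5.52 FPKM. The 9 markers of stellate cells and fibroblasts summed to 3.87 FPKM in DKO 3 and to 1.68 and 1.92 FPKM in WT 4 and WT 5, the next highest, against 0.709 and 0.739 FPKM in WT 1 and WT 2. The 15 acinar markers summed to 57.6 to 249 FPKM in WT, 44.7 to 224 in IKO, 371 to 1295 in HKO and 169 to 1295 in DKO, and in WT they were lower in replicates 4 and 5 (57.6 and 60.0 FPKM) than in replicates 1 and 2 (199 and 218 FPKM). In HKO the acinar sums were higher in replicates 4 and 5 (1273 and 1295 FPKM) than in replicates 1 and 2 (403 and 411 FPKM).

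The 8 markers of other islet cells had sums that moved between the sets in WT and HKO but little in IKO and DKO. Their sums went from 1870 and 1934 FPKM in WT 1 and WT 2 to 2968 and 3148 FPKM in WT 4 and WT 5, and in HKO from 1918 and 1881 to 3686 and 3638 FPKM. In IKO they went from 1620 and 1636 to 1573 and 1551 FPKM and in DKO from 2141 and 2128 to 2159 and 2085 FPKM. Of the beta cell markers, 3 of 10 were higher in replicates 4 and 5 than in replicates 1 and 2 in WT (median log2 difference −0.41), 1 of 10 in IKO (−0.38), 3 of 10 in HKO (−0.62) and 5 of 10 in DKO (−0.03). The summed FPKM of the 10, most of it Ins1 and Ins2, was instead higher in replicates 4 and 5 in every genotype. In WT 1 and WT 2 it was 284542 and 315355 FPKM, and in WT 4 and WT 5 it was 352995 and 338140 FPKM. Slc2a2, the glucose transporter of beta cells, was 1 of the lower markers and was not picked by the naming rule. Its FPKM went from 63.3 to 24.01 in WT, from 42.7 to 17.2 in IKO, from 61.8 to 20.2 in HKO and from 56.8 to 29.7 in DKO. The part of these cells in the members' values was not tested.

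**Figure D5:**
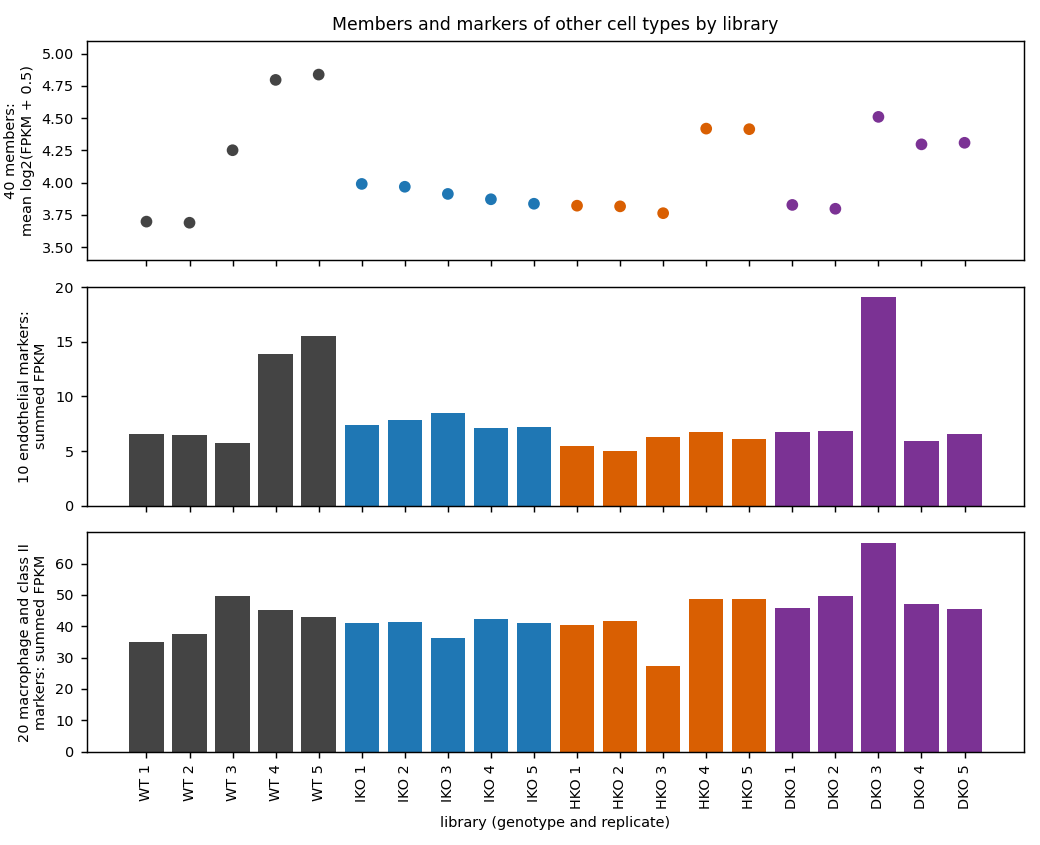
Mean log2(FPKM + 0.5) of the 40 members (points, axis not from 0), summed FPKM of 10 endothelial markers (bars) and summed FPKM of 20 macrophage and class II markers (bars) in each library, coloured by genotype. WT 4, WT 5 and DKO 3 are highest in both upper panels. HKO 4 and HKO 5 are high for the members with endothelial sums of 6.74 and 6.11 FPKM, against 5.44 and 4.996 FPKM in HKO 1 and HKO 2.

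The plot of members beside markers shows the sums by library. HKO 4 and HKO 5 had a mean member log2 of 4.42 and 4.41 at endothelial sums of 6.74 and 6.11 FPKM. HKO 1 and HKO 2 had 3.82 each at 5.44 and 4.996 FPKM. DKO 4 and DKO 5 had 4.30 and 4.31 at 5.93 and 6.59 FPKM, and DKO 1 and DKO 2 had 3.83 and 3.80 at 6.75 and 6.88 FPKM. WT 3 had 4.25 at 5.72 FPKM, and WT 1 and WT 2 had 3.70 and 3.69 at 6.57 and 6.47 FPKM. The macrophage and class II sums were higher in some of these libraries, at 48.8 and 48.7 FPKM in HKO 4 and HKO 5 against 40.5 and 41.8 FPKM in HKO 1 and HKO 2, and at 49.6 FPKM in WT 3 against 34.8 and 37.6 FPKM in WT 1 and WT 2. In DKO 4 and DKO 5 they were 47.1 and 45.5 FPKM, against 45.96 and 49.7 FPKM in DKO 1 and DKO 2.

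The genes around the members were read in the same way. Of 27 ligands, receptors and signalling genes of interferon, 17 were tested. The ligands Ifna1, Ifna4 and Ifnl3 had 0 reads in every library, Ifnb1 at most 2 reads, and Ifng, Ifna2 and Ifnl2 at most 1 read. The receptor chains Ifnar1 and Ifnar2 had means of 6.91 and 8.88 FPKM over 20 libraries. Ifngr1, a chain of the interferon gamma receptor, was the only gene of this list to pass in any comparison, lower in DKO (7.73 ± 0.546 FPKM) than in IKO (9.60 ± 0.959 FPKM, SD, n = 5). The log2 difference was −0.29 (SE 0.06, limma adjusted p = 0.0272). It did not pass with close pairs averaged (adjusted p = 0.999724) or treated as correlated (0.775), nor without IKO 1, 2, 4 or 5 or DKO 3, 4 or 5 (0.0519 to 0.0897). It also did not pass with only IKO and DKO in the fit (0.169), without replicates 1 and 2 of every genotype (0.0912) or without replicates 4 and 5 (0.341). Between the sets, 10 of the 17 were higher in WT replicates 4 and 5, with a median of 0.03. Of 44 other interferon-stimulated genes, 32 were tested and none passed in any of the 6 comparisons by limma or by voom. At a limma unadjusted p below 0.05, 13 were above 0 for the interaction (2.2% of all genes), 7 lower in IKO against WT (1.68%) and 7 lower in HKO against WT (4.23%). In DKO against IKO, 8 were higher (4.33% of all genes) and 1 lower (5.89%). In DKO against HKO, 2 were higher (2.28%), and in DKO against WT 1 was higher (4.09%) and 1 lower (3.93%). In WT, 31 of these 32 were higher in replicates 4 and 5 (median 0.55), and in IKO 9 of 32 (median −0.24). Of all 12455 genes tested, 5308 were higher in WT and 6214 in IKO. Lgals3bp, a secreted glycoprotein, was the most abundant of the 32 at 520 FPKM. The 12 tested genes of nucleic acid sensing (17 listed) and the 22 tested genes of class I folding, the proteasome and other class I chains (25 listed) also had none passing by limma or voom. In each comparison, 0 to 3 and 2 to 3 of them had a limma unadjusted p below 0.05, against 3.69 to 10.2% of all genes. Their medians in WT between the sets were 0.20 and 0.22.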

How the data were processed

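RNA of 20 libraries was analysed, grouped by the genotype and replicate number given by their titles. FPKM values are the only unit the authors deposited, in a single table without columns of other samples. Per the labels' protocols, poly-A libraries kept the strand and gave short read pairs. The submitters' processing notes name Subread 1.5.2 with featureCounts, STAR 2.5.2b, DESeq2 1.14.1 and mm10, with no roles. Which annotation and strand setting the counting had is not given in the sources used here, so overlapping genes and near-identical copies are uncertain. Of 27179 entries, 847 named NA (0.0810 to 0.204% of reads) and 27 carrying a date (0.160 to 0.186%) were left out.

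Reads were recovered from the FPKM values through the worth of 1 read per entry. Whole reads (within 0.02) came out for all 21006 entries above 0, which is 100%, and were used for depth, for comparing replicates over genes with 20 to 20000 reads in a pair, and for voom. The test was limma 3.58.1 on log2(FPKM + 0.5) of genes averaging 0.5 FPKM or more (eBayes with trend, genotype as the term, all 20 libraries) in R 4.3.3, with Benjamini-Hochberg adjustment over 12455 genes at 0.05. Fold changes on this scale understate changes of genes with low FPKM. The fit was tested on simulated data whose libraries were drawn independently, without close pairs or library sets. That test cannot show how the fit behaves where libraries come in close pairs. P-values reflect only how far these libraries spread, possibly for technical reasons, and close pairs counted as separate libraries can make them too small. Tables were made with Python 3.11.15 and pandas 2.3.3.

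Members with values were those past the threshold, the highest mean and largest SD of each role, the 3 smallest p of each comparison and 10 genes of the pathway. Members, lists and library sets were chosen with earlier results of these data known. The 36 alternatives changed the pseudocount (0.1, 1), filter, scaling, spread estimate, test, block, set term, close pairs and each library in turn, and 3 of them were added after seeing the data. Coordinates are from GENCODE vM21 and promoters from RefSeq. Some results are not reported here.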

Additional observations from a re-analysis of the deposited data

Results flagged for a closer look

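For 28 members, both IKO libraries were above both WT libraries in replicates 1 and 2 and below both in replicates 4 and 5 (3.65% of all genes). The same change of side was seen for 19 members in HKO (4.75% of all genes) and 19 in DKO (9.67%). These were singled out because the direction differs between library sets, and the difference was not tested. All 3 counts use the same WT libraries.

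Single libraries stood apart from the other 4 of their genotype in 7 of 104 sets of 5 libraries examined. A chance rate of about 1 in 20 holds for 5 independent libraries. It does not apply here, since replicates 1 and 2, and 4 and 5, lay close together and every gene was read in the same 20 libraries. Replicate 3, which has no close partner, is the likeliest to stand apart. DKO 3 was the high library for Ddx58 (15.99 FPKM), Ifih1 (5.46 FPKM), Gbp2 (7.11 FPKM), Irf9 (27.0 FPKM) and Parp14 (11.6 FPKM). DKO 3 also had the highest endothelial and macrophage marker sums of the 20 libraries (19.1 and 66.6 FPKM), whose part in these values was not tested. IKO 3 was the high library for Psmb9 (20.6 FPKM), and HKO 2 was the low library for Ddx58 (10.4 FPKM).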

How the results depend on the processing

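Over 36 alternatives, the number of members passing kept its value in 215 of 216 cases and the median log2 difference moved by less than the spread between libraries in 215 of 216. That spread was 0.40 to 0.46 in the comparisons with WT, above the size of the medians themselves, so it could hardly flag a change. Some alternatives cannot move a median at all. These are the replicate block, the set term, another spread estimate, and a library left out of a genotype not compared. The median of DKO against WT went from −0.22 without replicates 1 and 2 to 0.21 without replicates 4 and 5. That of DKO against HKO went from −0.03 without replicate 3 to 0.28 without replicates 4 and 5. Without replicates 4 and 5 of every genotype, the number passing in DKO against WT was 2 (Stat2 and Irf9). There the close pair of replicates 1 and 2 counted as separate libraries. In the same fit the median of IKO against WT was 0.089, and the differences of Oasl2 and Ifih1 in IKO against WT changed sign, to 0.19 and 0.040. The cause was not tested. Leaving out 1 library at a time, 0 members passed in every comparison, and the median ranged from −0.43 to −0.20 (IKO against WT), −0.29 to −0.04 (HKO against WT), −0.21 to 0.05 (DKO against WT), 0.01 to 0.22 (DKO against HKO), 0.15 to 0.33 (DKO against IKO) and 0.31 to 0.55 (interaction). Equal medians shifted libraries by −0.11 to 0.15 on the log2 scale.

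With a replicate block, 0 members passed in each comparison. The median of IKO against WT was −0.33, which the block cannot change, since every genotype holds the same replicate numbers. Deviations of libraries with the same number correlated by 0.081 to 0.48 for replicate 1, 0.11 to 0.35 for replicate 2, −0.39 to 0.25 for replicate 3, 0.37 to 0.50 for replicate 4 and 0.28 to 0.45 for replicate 5, and 10 of 20 libraries correlated best with their own number. Not every pair was over 0.1, so the numbers were not taken to pair samples. This does not show that library sets are unshared between genotypes. With replicates 1 and 2, and 4 and 5, so alike, the best match by number can hardly tell. With the block, 193 genes passed in HKO, 263 in DKO and 291 in DKO against IKO, and 1 in each of the others. Over all genes the number passing ranged from 0 to 29 (IKO against WT), 5 to 277 (HKO), 17 to 363 (DKO), 0 to 5 (DKO against HKO), 15 to 434 (DKO against IKO) and 0 to 2 (interaction), against 3, 98, 150, 1, 138 and 1. The lowest came from averaging close pairs in the first 5 (the consensus correlation of close pairs was 0.81) and from equal medians in the last, and the highest from the library set term in HKO, DKO and DKO against IKO. H2-Q6, H2-Q7, Isg15 and Ifi44 rest on as few as 30 to 48 reads in a library.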
